A study of Danio rerio with 18 samples.

Results

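In wild-type zebrafish, mature eggs had fewer genes at 1 FPKM or more than FG follicles did, a count not repeated under other scalings. Of the tested genes, 60.4% were called lower in eggs in FPKM, a share that fell to 43.3% with median-of-ratios scaling. Egg coat genes, subunits of the mitochondrial ribosome and proteasome, and the mRNAs of buc, zar1, bmp15 and dab2 were among the transcripts that fell. Transcripts of nanog, pou5f3, eomesa, dazl and fbxo43 rose, and in FPKM so did those of the 13 mitochondrial genes. The comparison rests on 5 wild-type egg libraries and 4 wild-type FG follicle libraries, which are 9 of the 18 libraries sequenced. The other 9 come from fish mutant for sinhcaf (sinhcaf-/-), a gene whose product belongs to a SIN3 histone deacetylase complex. Per the labels the tissue was ovary, and a library was made from the eggs or follicles of a single fish, pooled. The labels do not spell out FG, give no strain or age, and name no hormone treatment, and the genotype is given as wild type with no other allele.

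In teleost ovaries a growing oocyte takes up yolk and stores mRNA and protein for the embryo, inside layers of granulosa and theca cells that make sex steroids. Luteinizing hormone then starts maturation: the oocyte leaves its prophase arrest, halts again at the second meiotic metaphase, and is shed from its follicle as an egg. Transcription is largely silent in this phase and in the early embryo, so the stored mRNAs are put to use or removed through the length of their poly(A) tails and through decay. The library kit (TruSeq Stranded mRNA) selects mRNA by its poly(A) tail, so the amount of an mRNA and the length of its tail cannot be told apart here. Each library is also a bulk sample, in which fewer cells of a type and less RNA per cell cannot be told apart.

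Values are FPKM, fragments per kilobase of gene model scaled by the mapped fragments of the library, for 25432 genes. Of these, 9618 reached 1 FPKM in at least 4 of the 9 libraries and were tested on log2(FPKM + 1) with limma, with p-values adjusted by the Benjamini-Hochberg method over all 9618 genes. A gene is called at an adjusted p under 0.05, and "rose" and "fell" below mean called higher or lower in eggs than in FG follicles. Read counts were not used, so absolute depth is unknown. From the steps between low values, egg libraries had an estimated 0.798 to 0.920 and FG follicle libraries 0.911 to 1 of the depth of FG follicle library 1. The estimate used only ratios within a fixed window around 1, so it could not have shown a large difference in depth. Within a stage the libraries were alike, with a correlation across tested genes of 0.961 to 0.993 between eggs and 0.968 to 0.979 between FG follicles, against 0.617 to 0.685 between stages. Egg libraries 4 and 5 stood somewhat apart, with 7701 and 7682 genes at 1 FPKM or more against 6929 to 7183 in egg libraries 1 to 3. With egg libraries 1 to 3 alone 2248 genes rose and 5970 fell, and with egg libraries 4 and 5 alone 2257 rose and 5421 fell.

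An egg library held 7292 ± 378 genes at 1 FPKM or more (SD, n = 5) and an FG follicle library 9807 ± 68.9 (SD, n = 4). Transcripts of the mitochondrial genome made up 35.5 ± 1.97% of the summed FPKM in eggs and 15.3 ± 1.67% in FG follicles, and the groups did not overlap for either measure. The gene count was taken in FPKM only, so its dependence on scaling was not tested. The 20 highest genes of a library held 38.5 ± 2.04% of its summed FPKM in eggs and 18.5 ± 1.53% in FG follicles. Each of these differences had a two-sided exact permutation p of 0.0159, the smallest that 5 against 4 libraries allow, and 0.0198 after adjustment over 5 measures. The share of cytosolic ribosomal protein genes was 4.13 ± 0.474% in eggs and 3.72 ± 0.443% in FG follicles, a difference within the spread of the libraries (exact permutation p = 0.206), and with the mitochondrial genes left out of the sum it was 2.01 percentage points higher in eggs (exact permutation p = 0.0159).

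**Figure D1:**
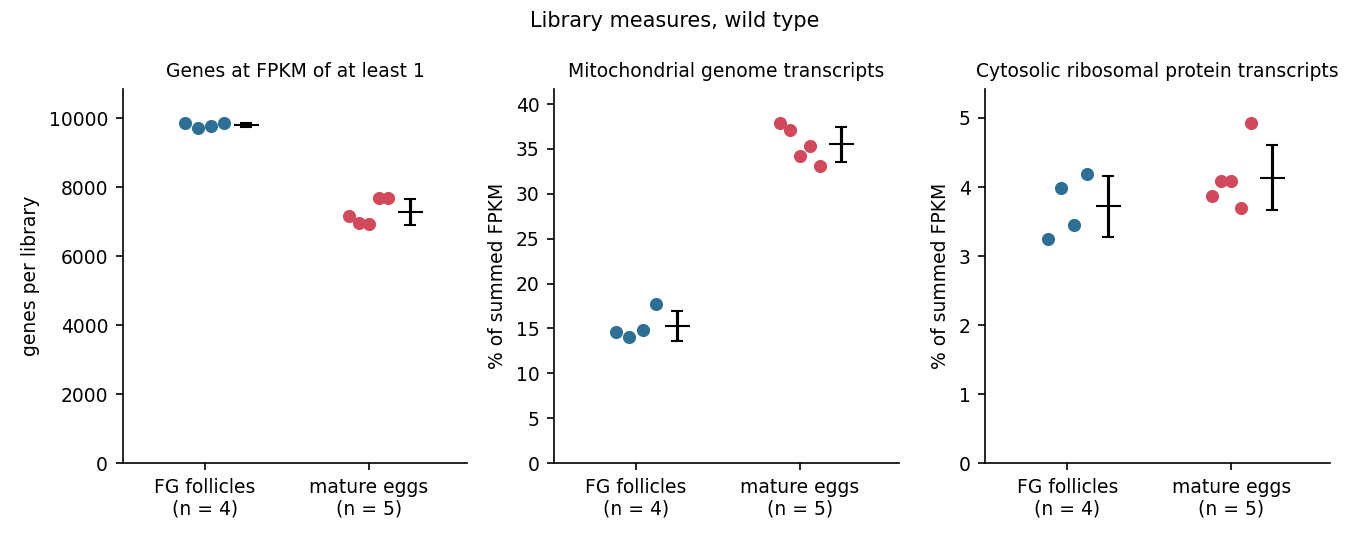
Genes at 1 FPKM or more, and the share of summed FPKM from the mitochondrial genome and from cytosolic ribosomal protein genes, in each wild-type library (points), with mean and SD beside them. The 5 egg libraries lie at 6929 to 7701 genes and the 4 FG follicle libraries at 9722 to 9866, and the mitochondrial shares are separate too, while the ribosomal shares overlap.

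Of the 9618 tested genes, 8099 (84.2%) were called. The stages did not overlap for 7456 genes (77.5%), with 2046 (21.3%) higher and 5410 (56.2%) lower in every egg library. Statements below that the stages were separate are to be read beside these shares. In eggs, 2286 genes (23.8%) were higher and 5813 (60.4%) were lower than in FG follicles. By at least 1 on the log2 scale, 1325 (13.8%) rose and 4632 (48.2%) fell; 332 rose and 2416 fell by at least 2. The split depends on how libraries are scaled, since FPKM is a share of each library. The median gene differed by -0.93 on the log2 scale in FPKM, by -1.34 in TPM, by -1.03 in TPM without mitochondrial genes, by -0.09 after median-of-ratios scaling and by 0.03 after quantile normalization. The share of calls that were higher in eggs was 28.2% in FPKM, 23.8% in TPM, 30.3% in TPM without mitochondrial genes, 47.7% with median-of-ratios scaling (3798 higher, 39.5%, and 4168 lower, 43.3%) and 50.9% with quantile normalization. Under every one of the 5 scalings, 1914 genes (19.9%) were called higher and 3530 (36.7%) lower. Directions below are therefore read beside the median gene's -0.93, and genes named as rising or falling held that call under all 5 scalings unless a sentence says otherwise. Counts of rises and falls within a gene list are to be read beside the 23.8% and 60.4% of all tested genes. Genes that passed the filter only through their level in FG follicles were bound to be lower in eggs. Those that passed only through eggs were bound or favoured to be higher there. For all such genes the p-value is no support for the direction.

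Eggs also had more of their genes at the extremes of level. Mean FPKM was 1000 or more for 32 genes in eggs and 16 in FG follicles, and 10 to 100 for 2461 genes in eggs and 4216 in FG follicles. No gene was at 1 FPKM or more in all 5 egg libraries and under 0.1 in all 4 FG follicle libraries, while 65 genes had the opposite pattern. With the lower limit raised to 0.5 FPKM, 795 genes were found in FG follicles only and 30 in eggs only. Few genes were thus found in 1 stage only at the limits of 1 and 0.1 FPKM, and more with the limit of 0.5. All counts in this paragraph were taken in FPKM only and were not repeated under other scalings. The 65 genes include jun, ier2a, hbaa1, hsd3b1, hsd17b1 and lhcgr, of which hbaa1 and lhcgr are described with their groups below.

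**Figure D2:**
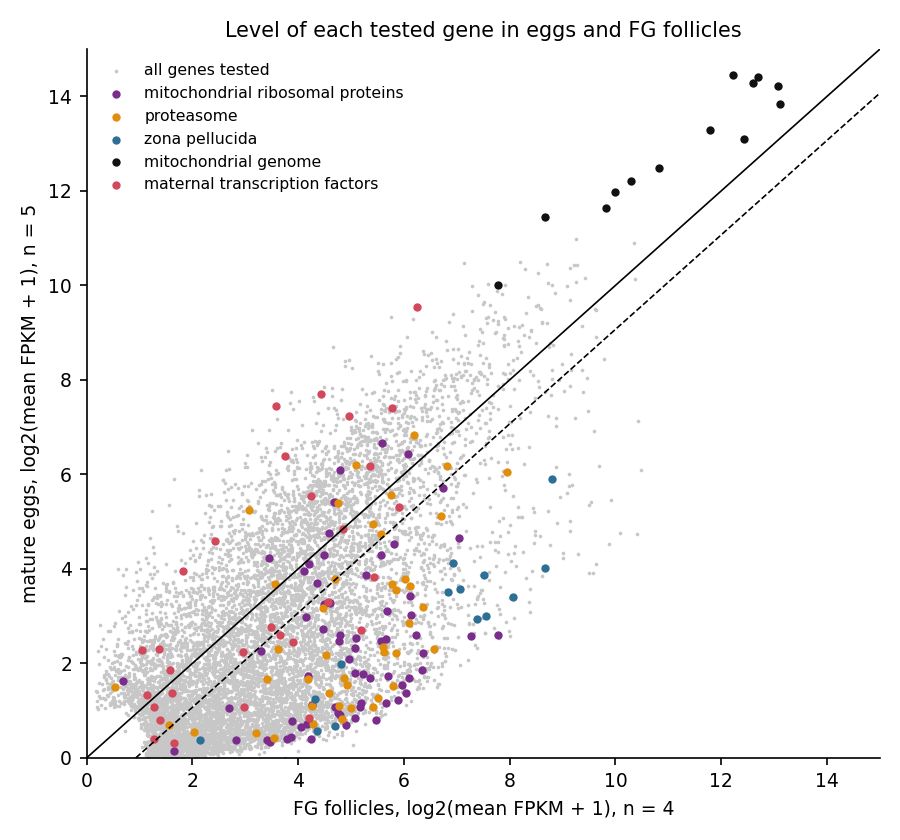
Mean level of each tested gene, log2(mean FPKM + 1), in FG follicles (x axis, n = 4) and eggs (y axis, n = 5), with 5 gene groups coloured; the solid line marks equal levels and the dashed line the median difference of -0.93. Zona pellucida genes lie far below both lines, mitochondrial ribosomal protein and proteasome genes mostly below, and the 13 mitochondrial genome genes above the solid line.

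The largest fall by the naming rule was that of dab2, an adaptor that loads cargo into clathrin-coated pits. It stood at 209, 275, 329 and 218 FPKM in the FG follicle libraries and at 6.63, 3.53, 4.63, 5.1 and 4.98 in the egg libraries, a 43.2-fold difference on the log2(FPKM + 1) scale (log2 difference -5.43, SE 0.18, adjusted p = 5.74e-10). Next was buc (Bucky ball), the protein that organises the Balbiani body and the germ plasm of the zebrafish oocyte. Its mRNA was at 943, 896, 923 and 985 FPKM in FG follicles and at 24.3, 15.5, 17.5, 26.6 and 26.5 in eggs (log2 difference -5.37, SE 0.16, adjusted p = 4.94e-10). Neither gene came near an overlap between the stages. The rest of the 15 largest falls, with log2 differences from -5.35 to -4.79, were stmn1a (a stathmin, which binds tubulin dimers), mrpl17 (mitochondrial ribosome), neil1 (base excision repair), st3gal1 (a sialyltransferase), polr2k (a subunit shared by the nuclear RNA polymerases), eif2s2 (a subunit of the initiation factor eIF2), eno3 (an enolase), nop16 (ribosome assembly), stk17al (a kinase), alg1 (N-glycan synthesis), armc1l, impdh2 (guanine nucleotide synthesis) and zar1. For example, polr2k went from a mean of 69.6 to 1.32 FPKM and eif2s2 from 163 to 4.2. These falls touched housekeeping functions as well as oocyte genes.

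The largest rise by the naming rule was that of srsf7a, an SR protein of pre-mRNA splicing. It was at 14.5, 7.56, 6.57 and 13.1 FPKM in FG follicles and at 253, 190.4, 259, 193 and 208 in eggs (log2 difference 4.33, SE 0.22, adjusted p = 4.52e-09). Second was papd7, a non-canonical poly(A) polymerase, at 2.98, 1.82, 1.41 and 2.34 FPKM in FG follicles and 63, 46.4, 46.9, 70.4 and 66.5 in eggs (log2 difference 4.25, SE 0.19, adjusted p = 1.98e-09). In both genes the lowest egg library lay far above the highest FG follicle library. The other 13 of the 15 largest rises by that rule had log2 differences from 3.54 to 3.99. RNA-binding proteins among them were raver1 (13.6 to 212 FPKM in the means), znf346 (7.77 to 123), which binds double-stranded RNA, and khsrp (28.5 to 339), which binds AU-rich elements. Signalling and adhesion genes were map3k1 and mapk6, kinases of MAPK pathways, ctnnd1 (p120-catenin), rflnb (a filamin partner), sh2d5 and ddit4, an inhibitor of mTORC1. The remaining ones were eomesa, a T-box transcription factor, cbx2 of Polycomb complexes, the mitochondrial carrier ucp2 and the protease cathepsin C (ctsc).

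Genes of the egg coat fell as a group. Zona pellucida proteins form the coat around the fish egg and are made by the growing oocyte or by the liver. Of 16 such genes in the table, 14 passed the filter on low values; all 14 fell, against 60.4% of all tested genes, and their median log2 difference was -3.63 against -0.93 over all genes. The median stayed between -3.96 and -2.55 under the 5 scalings, and all 14 were called lower under each. zp3b was at 353, 263, 151 and 297 FPKM in FG follicles and 10.4, 7.31, 9.22, 9.74 and 11.1 in eggs (log2 difference -4.61, SE 0.22, adjusted p = 3.26e-09), and zp3a.1 at 489.7, 433, 234 and 459 and 18.5, 11.7, 15.7, 12.4 and 17.8 (log2 difference -4.61, SE 0.22, adjusted p = 3.48e-09). The FG follicle libraries varied widely within this group, with library 3 lowest for both genes, but no egg library approached them. The smallest of the falls given here, that of zp2.5, was -2.87, and its FG follicle libraries ranged from 3.72 to 28.4 FPKM. zp3b and zp3a.1 were above 1 FPKM in every egg library, so the filter did not fix their direction. It did so for any member that passed only through FG follicles. The list was also chosen with earlier results of these data known, so the count is a description and not a test of the group.

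Factors that the oocyte makes for itself or secretes moved both ways. Of 22 tested genes on this list, 6 rose and 14 fell, with a median of -1.47 in FPKM and from -1.75 to -0.39 over the 5 scalings. zar1, which binds maternal mRNAs and is needed in the zebrafish oocyte, was at 138, 208, 107 and 279 FPKM in FG follicles and 6.98, 4.48, 5.44, 4.38 and 5.13 in eggs (log2 difference -4.79, SE 0.25, adjusted p = 6.01e-09). Its paralog zar1l had the opposite pattern, at 72.3, 70.2, 81.1 and 73.3 in FG follicles and 219.8, 206, 278, 128 and 87.5 in eggs (log2 difference 1.19, SE 0.28, adjusted p = 0.00184). Both stages were separate for both genes, although zar1l in egg libraries 4 and 5 lay nearer to FG follicles than in libraries 1 to 3. The oocyte-secreted growth factors likewise parted: bmp15 was at 60.8, 65, 84 and 56.7 FPKM in FG follicles and 3.17, 3.33, 2.22, 4.12 and 5.48 in eggs (log2 difference -3.88, SE 0.20, adjusted p = 5.64e-09). gdf9, its partner in the TGF-beta family, was at 13.8, 15.3, 7.87 and 12.4 and 9.39, 11.1, 11.4, 11.8 and 8.03, with overlapping groups (log2 difference -0.21, SE 0.19, adjusted p = 0.317). The call for gdf9 turned with scaling, to a rise of 0.82 with median-of-ratios scaling and 0.84 with quantile normalization. It also became a fall of -0.39 without FG follicle library 3 (limma adjusted p = 0.0387).

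In the germ plasm and oocyte polarity list, 8 of 24 tested genes rose and 12 fell, and the median of -0.39 in FPKM became 0.71 with median-of-ratios scaling. buc fell, as did rbpms2b, an RNA-binding protein of the Balbiani body, from a mean of 567 to 27 FPKM (log2 difference -4.34, SE 0.18, adjusted p = 1.6e-09). dazl, an RNA-binding protein of germ cells whose mRNA sits in the germ plasm, rose: it was at 160.3, 242, 139 and 131 FPKM in FG follicles and 758, 861, 935, 1004 and 859.8 in eggs (log2 difference 2.42, SE 0.17, adjusted p = 6.18e-08). nanos3, a translational repressor of the germ line, rose from 8.67, 7.28, 3.65 and 9.74 in the FG follicle libraries to 38.5, 31.3, 43.6, 60.8 and 36 in eggs (log2 difference 2.40, SE 0.25, adjusted p = 2.51e-06). For both of these genes every egg library lay above every FG follicle library, the reverse of buc and rbpms2b. grip2a, vegetally localised and linked to dorsal axis formation in zebrafish, had means of 28.1 and 97.6 FPKM in FG follicles and eggs, a rise of 1.75. ddx4 (vasa) was at 68.1, 83.7, 77.2 and 76.8 and 70.8, 73, 64.4, 117 and 94 FPKM and was not called (log2 difference 0.10, SE 0.17, adjusted p = 0.59); it was higher by 1.21 with median-of-ratios scaling. Genes of the piRNA pathway, which silences transposons in germ cells, had 3 of 20 rising and 14 falling, shares near those of all tested genes, with a median of -1.51. henmt1, the methyltransferase of piRNA ends, had the largest fall of that list, from 25.6 to 0.575 FPKM, while pld6, a phospholipase of the mitochondrial surface, rose from 33.8 to 108 FPKM. henmt1 was under 1 FPKM in every egg library and passed the filter only through FG follicles, which fixed its direction. Of 12 tested genes of the synaptonemal complex and recombination, 1 rose and 10 fell. psmc3ip, a partner of the meiotic recombinases, fell from 57.1 to 2.12 FPKM. The one that rose, sycp3, stayed low, at 0.3, 0.285, 0.488 and 0.374 FPKM in FG follicles and 2.41, 2.9, 2.5, 0.373 and 1.62 in eggs. It passed the filter only through eggs, which favoured a rise.

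**Figure D3:**
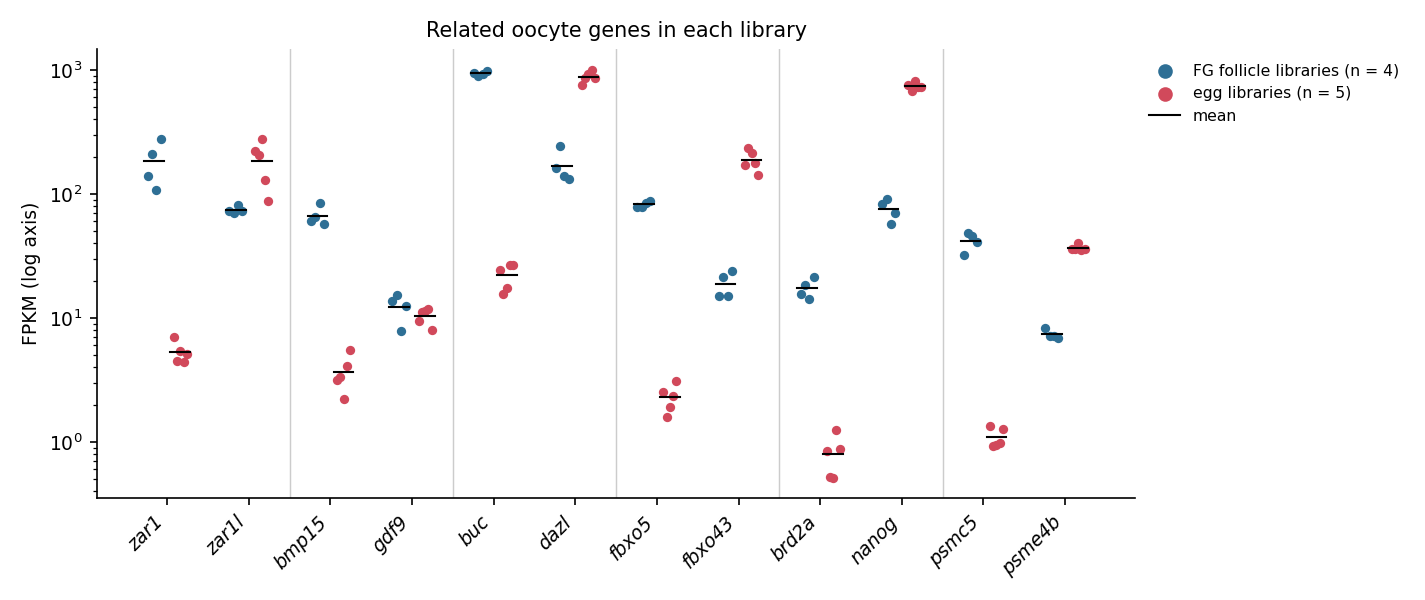
FPKM (log axis) of 6 pairs of genes in each FG follicle library and each egg library, with the mean as a line. Several of the genes, such as fbxo5 and fbxo43, and psmc5 and psme4b, were named as the largest fall or rise of their list. Opposite directions within such a pair follow from that choice and are not a finding. Of all tested genes, 77.5% had stages that did not overlap. In the pairs zar1 and zar1l, buc and dazl, fbxo5 and fbxo43, brd2a and nanog, and psmc5 and psme4b the first gene is lower and the second higher in every egg library than in any FG follicle library; bmp15 is lower in eggs, while its partner gdf9 overlaps.

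Cell cycle regulators of meiosis moved both ways too. Maturation-promoting factor, the pair of Cdk1 and cyclin B, drives entry into M phase, and in eggs cytostatic factor holds the metaphase arrest by blocking the anaphase-promoting complex. Of 34 tested genes of M phase entry, 14 rose and 18 fell, with a median of -0.60 in FPKM and 0.42 with median-of-ratios scaling. fbxo5 (Emi1) and fbxo43 (Emi2) both encode inhibitors of the anaphase-promoting complex, and Emi2 is the one known from frog and mouse eggs as the effector of the metaphase arrest. fbxo5 was at 77.9, 78.2, 84.7 and 87.9 FPKM in FG follicles and 2.51, 1.6, 1.9, 2.33 and 3.1 in eggs (log2 difference -4.68, SE 0.15, adjusted p = 5.67e-10). fbxo43 was at 15, 21.3, 15 and 23.8 in FG follicles and 172, 234, 213, 176 and 142 in eggs (log2 difference 3.26, SE 0.18, adjusted p = 1e-08). The inhibitors differed between stages in opposite directions, and the stages did not overlap for either gene. They were named as the largest fall and the largest rise of the anaphase-promoting complex list. Their contrast follows from that choice and is not a finding.

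cdk1 fell, from 6.06, 15.4, 6.86 and 12.8 FPKM in FG follicles to 1.04, 1.37, 0.484, 0.538 and 0.845 in eggs (log2 difference -2.54, SE 0.26, adjusted p = 1.9e-06), and so did CKS2, a binding partner of Cdk1 (303 to 19.5 FPKM, -3.97). Its cyclins did not follow. ccnb2 rose from 435, 429, 473 and 511 to 952, 958, 1010.4, 856 and 784 FPKM (log2 difference 0.98, SE 0.10, adjusted p = 2.55e-06), and ccna2 from 69.5, 63.2, 29.5 and 69 to 309, 274, 302, 268 and 257 (log2 difference 2.34, SE 0.22, adjusted p = 9.79e-07). ccnb1 was at 309.6, 213, 180.5 and 288 and 349, 339, 375, 288 and 263 FPKM, with overlapping groups (log2 difference 0.40, SE 0.17, adjusted p = 0.045); its call was lost in 11 of 25 alternative settings, among them TPM, where its log2 difference was 0.15, and leaving out any of 5 libraries. The kinase gene mos, whose product is part of cytostatic factor in vertebrates, is listed at 0 in all 9 libraries, as is the egg-enriched gene btg4, and nothing is read from these zeros. Among 22 genes of the anaphase-promoting complex and meiotic arrest, 4 rose and 14 fell (median -1.05). The subunit gene anapc4 fell from 18.6 to 0.65 FPKM, whereas anapc16 rose from 4.14 to 28.4. anapc4 was under 1 FPKM in every egg library and passed the filter only through FG follicles, which fixed its direction. cdc20, the activator of the complex, had means of 205 FPKM in FG follicles and 204 in eggs and was not called (log2 difference -0.01, SE 0.15, adjusted p = 0.938); with median-of-ratios scaling it was higher in eggs by 1.11.

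Proteins that lengthen, shorten or guard poly(A) tails govern stored mRNA. Of 69 tested genes of this kind, 23 rose and 40 fell, and the median of -0.86 in FPKM, near that of all genes, became 0.03 with median-of-ratios scaling. cnot8, a deadenylase subunit of the CCR4-NOT complex, rose from 82.8, 76.5, 57.8 and 65.6 FPKM in FG follicles to 614, 629, 703, 593 and 597 in eggs (log2 difference 3.14, SE 0.12, adjusted p = 8.82e-10). ybx1, a Y-box protein that packages maternal mRNA, rose from 93.6, 109, 115 and 121 to 440.1, 483, 417, 449.9 and 486 (log2 difference 2.05, SE 0.10, adjusted p = 4.98e-09). Both had tight groups. In the same list pum3, of the Pumilio family, fell from 65.2 to 2.45 FPKM (log2 difference -4.28, SE 0.18, adjusted p = 1.6e-09). cpeb1b, which binds the cytoplasmic polyadenylation element, fell from 264, 271, 285 and 228 to 116, 99.5, 137, 107 and 103 FPKM (log2 difference -1.22, SE 0.12, adjusted p = 1.22e-06), but this call was not kept with median-of-ratios scaling, where the log2 difference was -0.10.

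Maternal transcription factors that later switch on the embryo's genome were evenly split by count, with 12 of 30 tested genes higher and 12 lower in eggs. Their median was -0.13 in FPKM, -0.41 in TPM and 0.63 with median-of-ratios scaling, and under all 5 scalings 12 were called higher and 5 lower. In zebrafish, Nanog, Pou5f3 and SoxB1 proteins such as Sox19b open chromatin for the first zygotic transcription. nanog was at 82.9, 90.3, 56.9 and 69.9 FPKM in FG follicles and at 756, 681, 811, 731 and 729 in eggs, a 9.9-fold difference on the log2(FPKM + 1) scale (log2 difference 3.31, SE 0.13, adjusted p = 1.25e-09). pou5f3 was at 27.3, 21, 13.6 and 20.3 in FG follicles and 212, 186, 249.6, 208 and 184 in eggs (log2 difference 3.31, SE 0.18, adjusted p = 7.28e-09), and eomesa at 12.7, 12.9, 6.41 and 12.1 and 177, 160.0, 179, 175 and 177 (log2 difference 3.90, SE 0.18, adjusted p = 2.48e-09). All 3 genes were higher in every egg library than in any FG follicle library, as were 21.3% of all tested genes. sox19b did not share this step: it was at 33, 31.7, 17 and 29.5 FPKM and at 18, 20, 20.3, 51.9 and 29.5 (log2 difference -0.06, SE 0.30, adjusted p = 0.854), and was higher in eggs by 1.02 with median-of-ratios scaling. The bromodomain gene brd2a fell from 15.7, 18.3, 14.1 and 21.5 in FG follicles to 0.841, 0.525, 0.514, 1.24 and 0.872 in eggs (log2 difference -3.35, SE 0.17, adjusted p = 5.11e-09).

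Wnt and dorsal axis genes, whose maternal products set up the embryo's dorsal side, had 7 of 29 rising and 13 falling, with a median of -0.26 in FPKM and 0.62 with median-of-ratios scaling. lef1, a transcription factor of the pathway, rose from 4.59, 3.62, 2.76 and 3.91 to 35, 37.1, 40.2, 31.7 and 33.7 FPKM (log2 difference 2.96, SE 0.14, adjusted p = 3.38e-09). Genes of egg activation and calcium signalling, which carry the fertilisation response, were among the few lists with more rises than falls: 14 of 29 rose and 9 fell, and the median was 0.22 in FPKM and -0.02 in TPM. plcb3, a phospholipase C, rose from 1.64, 1.65, 1.01 and 1.33 FPKM in FG follicles to 14.9, 11.3, 16.3, 13.5 and 13.6 in eggs (log2 difference 2.63, SE 0.15, adjusted p = 1.19e-08). atp2a2a, a calcium pump of the endoplasmic reticulum, rose from a mean of 13 to 71.5 FPKM (log2 difference 2.37, SE 0.15, adjusted p = 2.78e-08). slc39a6, a zinc importer of the ZIP family, fell from 41.5 to 1.04 FPKM (log2 difference -4.38, SE 0.14, adjusted p = 5.67e-10).

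Genes of yolk uptake and processing moved both ways. Yolk precursors enter the oocyte through receptors and clathrin-coated pits and are then cut by cathepsins. Of 28 tested genes, 7 rose and 16 fell, with a median of -0.87 in FPKM and 0.01 with median-of-ratios scaling. Among them dab2 fell as given above, and ap2s1, a subunit of the clathrin adaptor AP-2, fell from 61.7, 68.4, 69.3 and 72.4 FPKM to 2.71, 1.6, 2.55, 3.9 and 2.16 (log2 difference -4.30, SE 0.17, adjusted p = 1.25e-09). Cathepsins differed among themselves: ctsla, a cathepsin L, rose from 221, 188, 132 and 229 FPKM to 1006, 1134, 1164, 984 and 903 (log2 difference 2.45, SE 0.16, adjusted p = 3.25e-08), and ctsc rose from 21.8, 14, 10.3 and 14.3 to 200.2, 179.9, 238, 200.1 and 115 (log2 difference 3.55, SE 0.23, adjusted p = 3.38e-08). A further one, ctsba, had means of 1317 and 1119 FPKM in FG follicles and eggs and was not called (log2 difference -0.27), but was higher in eggs by 0.86 with median-of-ratios scaling. In cell contacts, cx34.5, a connexin, fell from 13.6 to 0.249 FPKM, and cldn11a, a claudin, from 25.3 to 0.607. Both were under 1 FPKM in every egg library and passed the filter only through FG follicles, which fixed their direction. Of the 10 tested connexin and claudin genes 7 nevertheless rose, with cldn7b moving from 11.3, 6.8, 3.87 and 5.86 FPKM to 80, 66.1, 78, 70.9 and 58.9 (log2 difference 3.25, SE 0.22, adjusted p = 5.88e-08).

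In FPKM, transcripts encoded by the mitochondrial genome rose, and most of the nuclear genes tested for the organelle fell. All 13 protein-coding genes of the mitochondrial genome, which encode respiratory chain subunits, were called higher in eggs, with a median log2 difference of 1.74 in FPKM, 1.48 in TPM, 2.86 with median-of-ratios scaling and 0.23 with quantile normalization. mt-nd1 was at 961, 950.3, 967 and 1203 FPKM in FG follicles and 4401, 4209, 4396, 3699 and 3416 in eggs (log2 difference 1.98, SE 0.11, adjusted p = 1.21e-08). mt-atp6 was at 7848, 5973, 4665 and 8112 and 24542, 19195, 23198, 20349.5 and 21417 (log2 difference 1.74, SE 0.16, adjusted p = 6.37e-07), and mt-co2 at 6979, 9314, 8537 and 10769 and 15106, 15283, 15835, 15025 and 12328 (log2 difference 0.74, SE 0.13, adjusted p = 0.000181). The stages did not overlap for these genes. Quantile normalization gives the same value to the same rank in every library. After it, 6 of the 13 kept the call. There, mt-cyb and mt-co2 were lower in eggs, by -0.53 and -0.67, and mt-co1 was at -0.24.

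Nuclear genes for the same organelle mostly fell. Of 66 tested mitochondrial ribosomal protein genes, 56 fell and 6 rose, with a median of -3.05 in FPKM and of -3.54 to -2.02 over the 5 scalings; 46 were called lower under all 5. mrpl17 was at 177, 239, 205 and 253 FPKM in FG follicles and 7.44, 4.19, 4.89, 4.65 and 4.14 in eggs (log2 difference -5.19, SE 0.17, adjusted p = 5.74e-10), and mrpl53 at 109.9, 201, 149 and 155 and 8.2, 3.65, 5.19, 2.59 and 5.21 (log2 difference -4.73, SE 0.26, adjusted p = 8.16e-09). An exception was mrpl38, which rose from 25.4, 27.6, 25.7 and 27.7 to 73, 53, 91.7, 54.4 and 62.7 (log2 difference 1.27, SE 0.16, adjusted p = 1.09e-05). Of 84 nuclear genes of the respiratory chain, 71 fell and 8 rose (median -1.91, and -2.44 to -1.02 over the scalings). atp5f1b, the beta subunit of ATP synthase, was at 189.9, 234, 242 and 219.6 FPKM in FG follicles and 8.09, 8.74, 7.12, 7.94 and 7.43 in eggs (log2 difference -4.65, SE 0.11, adjusted p = 4.18e-10), while ndufa4l rose from a mean of 58.2 to 146 FPKM. No member of these lists is a test of the organelle itself, since only transcripts were measured.

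The cytosolic ribosome and the proteasome also differed. Of 78 cytosolic ribosomal protein genes, 35 rose, 16 fell and 27 were not called; the median was 0.33 in FPKM, 0.08 in TPM and 1.44 with median-of-ratios scaling, where 66 rose and 4 fell. rpl12 rose from 29.1, 33.1, 31.4 and 45.8 FPKM in FG follicles to 98.5, 83.6, 77.7, 108 and 141 in eggs (log2 difference 1.51, SE 0.19, adjusted p = 1.02e-05), and rpl35a fell from 71.4, 86.6, 70.2 and 98.1 to 15.8, 21.5, 15.3, 16.4 and 26.5 (log2 difference -2.06, SE 0.18, adjusted p = 4.35e-07). Of 43 proteasome genes, 36 fell and 5 rose, with a median of -2.35 in FPKM and -2.77 to -1.35 over the scalings. psmc5, an ATPase of the regulatory particle, was at 32, 48.5, 45.9 and 40.8 FPKM in FG follicles and 1.35, 0.919, 0.946, 0.977 and 1.28 in eggs (log2 difference -4.34, SE 0.15, adjusted p = 6.81e-10), and psma4, of the core particle, fell from 94.3 to 3.94 FPKM. The rising members included activators that cap the core in place of the regulatory particle: psme4b (PA200) rose from 8.24, 7.12, 7.17 and 6.9 to 35.9, 36.2, 40.4, 35.2 and 36 (log2 difference 2.18, SE 0.11, adjusted p = 4.83e-09), and psme3 (PA28 gamma) from 33.2 to 72.1 FPKM (log2 difference 1.11, SE 0.17, adjusted p = 6.6e-05).

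Of 66 heat shock and chaperone genes, 44 were lower and 13 higher in eggs, close to the shares of all tested genes (median -1.43, and -0.45 with median-of-ratios scaling). hspa5 (BiP), the main chaperone of the endoplasmic reticulum, was at 252, 388, 285 and 415 FPKM in FG follicles and 13.5, 8.64, 11.1, 10.6 and 11.1 in eggs (log2 difference -4.79, SE 0.17, adjusted p = 7.06e-10), and dnajc5ga, of the cysteine string protein family, rose from 37.7 to 207 FPKM. Among RNA polymerase II and general transcription factor genes, 22 of 68 rose and 43 fell, and the median of -0.81 in FPKM was 0.08 with median-of-ratios scaling. The Mediator subunits med6 and med10 were named for the size of their changes. med6 fell from 40.7 to 1.18 FPKM (log2 difference -4.25, SE 0.15, adjusted p = 7.42e-10) and med10 rose from 40 to 165 (log2 difference 2.02, SE 0.11, adjusted p = 8.57e-09). In the p53 pathway 5 of 21 genes rose and 12 fell (median -1.0); ccng1 rose from 22, 20.2, 19.2 and 20.4 to 111, 48.1, 179.7, 187 and 75.5 FPKM (log2 difference 2.32, SE 0.34, adjusted p = 4.69e-05), with egg libraries that differed widely among themselves, and ddb2, of DNA damage recognition, fell from 10.8 to 0.373. Cholesterol and lipid genes had 6 of 22 rising and 9 falling (median -0.27 in FPKM, 0.53 with median-of-ratios scaling), with the sterol enzyme gene nsdhl at 71.3 and 2.17 FPKM in FG follicles and eggs, and the lipase gene pnpla2 at 1.08 and 4.51.

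The cytoskeleton and the machinery for cell division were measured too. Of 14 tested tubulin and gamma-tubulin complex genes, 0 rose and 12 fell (median -1.71, and -2.43 to -0.87 over the scalings). The alpha-tubulin gene tuba8l4 was at 398, 628, 553 and 473 FPKM in FG follicles and 19.3, 15.2, 15.9, 18.1 and 27 in eggs (log2 difference -4.68, SE 0.18, adjusted p = 9.79e-10). How reads of near-identical tubulin genes were assigned is not stated, so single tubulin values are uncertain. Kinesin, dynein and dynactin genes had 9 of 37 rising and 19 falling (median -0.51, and 0.49 with median-of-ratios scaling); the kinesin gene kifc3 rose from 7.46 to 38.5 FPKM and dynlrb1, a dynein light chain, fell from 33.3 to 3.26. Of 63 kinetochore, spindle and checkpoint genes, 18 rose and 34 fell (median -0.70, and 0.23 with median-of-ratios scaling). nuf2, which links kinetochores to microtubules, fell from 77.4, 91.5, 88.2 and 91.1 to 2.72, 1.93, 2.37, 2.16 and 2.23 FPKM (log2 difference -4.75, SE 0.12, adjusted p = 4.18e-10), and anln (anillin), a scaffold of the cleavage furrow, rose from 9.9, 8.46, 5.95 and 8.46 to 46.4, 48.9, 48.1, 56.7 and 54.5 (log2 difference 2.51, SE 0.14, adjusted p = 1.25e-08).

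In DNA replication, which the early embryo runs through at high speed, 15 of 55 genes rose and 29 fell (median -0.75, and 0.18 with median-of-ratios scaling). Subunits of the replicative helicase fell: mcm2 was at 42.5, 56.8, 49 and 48.7 FPKM in FG follicles and 1.45, 1.25, 1.27, 1.2 and 1.31 in eggs (log2 difference -4.45, SE 0.13, adjusted p = 4.18e-10), and mcm5 had means of 86 and 3.02. cdc6, which loads that helicase, rose, from 3.88, 1.86, 1.7 and 4.58 to 23.1, 8.3, 29.3, 8.3 and 23.5 FPKM (log2 difference 2.18, SE 0.39, adjusted p = 0.000246), with egg libraries 2 and 4 well under the other 3. orc6, of the origin recognition complex, rose from 34.4 to 119 FPKM. Histone genes had 10 of 24 rising and 11 falling (median -0.29, and 0.26 with median-of-ratios scaling). The replacement histone gene h2afva, which encodes an H2A.Z variant, was at 135, 102, 96.2 and 153 FPKM in FG follicles and 859, 638, 743, 567 and 539 in eggs (log2 difference 2.46, SE 0.17, adjusted p = 7.21e-08). Most replication-dependent histone mRNAs of animals carry no poly(A) tail, so the kit can miss part of them.

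Most markers of follicle cells were low in both stages, and the tested ones were lower in eggs in FPKM. The label says follicles, and 36 granulosa genes were in the table; 6 passed the filter and all 6 were called lower in eggs (median -1.66), against 60.4% of all tested genes. All of them but cyp11a1 passed the filter only through FG follicles, which fixed their direction, so this count is a description. The summed level of the 36 genes was 29.1 to 38.1 FPKM in eggs and 64.7 to 110 in FG follicles, most of it from cyp11a1. Among members that did not pass the filter, mean FPKM was higher in eggs than in FG follicles for emx2 (0.654 against 0.316), runx2b (0.501 against 0.299) and cyp19a1a (0.0971 against 0.0154). The others were lower in eggs or at 0 in both stages. The gonadotropin receptor fshr and the hormone gene amh, both defining granulosa genes, were listed at 0 in all egg libraries and at 0.0489 FPKM or less in FG follicles, and cyp19a1a was at 0.267 FPKM or less in all 9. lhcgr, the receptor for luteinizing hormone, was at 3, 2.32, 1.44 and 1.9 FPKM in FG follicles and at 0.0194, 0, 0.0196, 0.0402 and 0.098 in eggs (log2 difference -1.59, SE 0.13, adjusted p = 2.72e-07). inha, the inhibin alpha subunit, was at 10.1, 2.04, 2.17 and 2.6 and 0.137, 0, 0.0947, 0 and 0.0948 (log2 difference -2.06, SE 0.32, adjusted p = 7.46e-05), with FG follicle library 1 far above the others. igf3, a gonadal insulin-like growth factor of fish, was at 11.9, 9.57, 7.7 and 7.95 FPKM and 0, 0.156, 0.155, 0.155 and 0 (log2 difference -3.22, SE 0.14, adjusted p = 2.07e-09). These 3 genes were separate between the stages, at levels near or under 10 FPKM.

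Genes of sex steroid synthesis had 4 of 22 rising and 16 falling, with a median of -1.37 in FPKM and -0.58 with median-of-ratios scaling. star, which brings cholesterol into mitochondria, was listed at 0 in all egg libraries and at 0.838, 1.28, 0.734 and 1.25 FPKM in FG follicles. hsd3b2 fell from 16.3, 14.2, 12.4 and 14.5 FPKM to 0.752, 0.841, 0.526, 0.423 and 0.817 (log2 difference -3.20, SE 0.14, adjusted p = 1.92e-09). It passed the filter only through FG follicles, which fixed its direction. The same holds for hsd3b1, hsd17b1, cyp17a2 and hsd11b2 among the 16 falls, so that count is a description. Transcripts of the enzymes at the head of the pathway were still found in eggs: cyp11a1, which cuts the cholesterol side chain, was at 47.2, 37.9, 44.8 and 80.6 FPKM in FG follicles and 33.6, 29.1, 36.4, 27.7 and 27.2 in eggs (log2 difference -0.70, SE 0.20, adjusted p = 0.00563). That fall turned to 0.40 with median-of-ratios scaling and lost its call when all 18 libraries were fitted together (limma adjusted p = 0.0675). cyp17a1, the next enzyme, was at 57.7, 55.4, 59.3 and 38.3 and 74.7, 59.9, 82.6, 65.4 and 96.6 (log2 difference 0.52, SE 0.17, adjusted p = 0.0137), a rise that was not called in TPM, at 0.27. Among hormone and growth factor receptors 5 of 16 rose and 10 fell (median -0.95, and -0.23 with median-of-ratios scaling), with the activin receptor gene acvr2bb at 4.7, 0.88, 0.818 and 1.35 FPKM in FG follicles and 10.8, 7.06, 9.86, 13 and 12.5 in eggs (log2 difference 2.14, SE 0.32, adjusted p = 4.9e-05). The nuclear progestin receptor pgr, needed for ovulation in zebrafish, did not pass the filter; it was at 3.36, 0.995, 1.46 and 1.06 FPKM in FG follicles and at 0, 0.075, 0.0338, 0 and 0 in eggs.

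Other cell types of an ovary left few transcripts. Of 61 theca, stroma and matrix genes 16 passed the filter, of which 2 rose and 12 fell, and the list summed to 23.0 to 33.6 FPKM in eggs and 86.8 to 164 in FG follicles. The smooth muscle genes tagln and acta2 fell from means of 22.6 and 12.4 FPKM to 0.395 and 0.521, and col1a1a was at 0.0853 FPKM or less everywhere. Like other falling members, tagln and acta2 were under 1 FPKM in every egg library. They passed the filter only through FG follicles, which fixed their direction, so the count of falls is a description. The 2 that rose were fn1a, from 0.563 to 2.26 FPKM, and the smooth muscle gene cnn1b, from 1.66 to 3.15. fn1a was under 1 FPKM in every FG follicle library and passed the filter only through eggs, which fixed its direction. Only 1 of these 2 was called higher under all 5 scalings. myl9b was not called, with means of 2.40 FPKM in FG follicles and 2.29 in eggs. Of 42 leukocyte genes 6 passed, with 1 higher and 5 lower in eggs. The list summed to 92.7 to 244 FPKM in eggs and 279 to 698 in FG follicles, most of it from the cathepsin gene ctss2.1. The higher one was il1b, with means of 1.55 FPKM in FG follicles and 4.64 in eggs, a call not kept under all 5 scalings. Of the lower ones, arpc1b, cd74a and cd74b passed only through FG follicles, which fixed their direction. Among members that did not pass, cxcr4b was higher in eggs (1.15 against 0.318) and apoc1 lower (0.00923 against 0.541). The pan-leukocyte gene ptprc was at 0.292 FPKM or less in all 9 libraries. Of 27 endothelial genes 2 passed, cldn5b and erg, and both rose, to 4.61 and 5.71 FPKM in eggs, while cdh5, which defines that cell type, was at 0.335 or less. Most endothelial members that did not pass were lower in eggs, such as flt4 (0.128 against 1.37) and lmo2 (0 against 0.530). The exceptions were tek (0.292 against 0.136), aqp8a.1, plvapb, kdr and tal1. Of 24 erythrocyte genes 4 passed, with 0 higher, 2 lower and 2 not called. The lower ones, hbaa1 and cahz, passed only through FG follicles, which fixed their direction. Those not called, blf and tspo, had means of 2.05 and 16.8 FPKM in eggs and 1.59 and 16.5 in FG follicles. Among members that did not pass, slc4a1a was higher in eggs (0.289 against 0.135) and tfr1a lower (0.194 against 0.639). Globin mRNA (hbaa1) was at 3.72, 4.13, 3.37 and 1.59 FPKM in FG follicles and at 0 in all egg libraries but the first, which had 0.0840. None of 26 liver genes passed. The part of such cells in the falls of other genes was not tested.

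Immediate early genes, which cells switch on within minutes of a stimulus, were a further group. Of 23 tested, 19 fell, against 60.4% of all tested genes, and 1 rose, with a median of -1.83 in FPKM and from -2.73 to -0.80 over the 5 scalings. fosab was at 46.3, 21.7, 22.1 and 19.8 FPKM in FG follicles and 0.805, 0.27, 0.411, 0.329 and 0.223 in eggs (log2 difference -4.27, SE 0.24, adjusted p = 1.04e-08), and junbb at 36.2, 27.4, 20.4 and 25.4 and 0.704, 0.449, 0.24, 0.358 and 0.522 (log2 difference -4.27, SE 0.17, adjusted p = 1.38e-09). FG follicle library 1 was the highest for both. Both genes were under 1 FPKM in every egg library, so they passed the filter only through FG follicles, which fixed their direction. The count of 19 falls holds such members and is a description, not a test of the group. The orphan receptor gene nr4a1 was the one that rose, from 3.16, 2.71, 2.46 and 2.09 to 5.51, 4.22, 7.33, 6.08 and 5.74 FPKM (log2 difference 0.90, SE 0.16, adjusted p = 0.000233). Of 15 genes of ovulation, proteases and prostaglandins, 3 rose and 9 fell (median -1.65, and -1.18 with median-of-ratios scaling). hbegfa, an EGF receptor ligand, was at 157, 165, 192 and 119 FPKM in FG follicles and 6.37, 8.1, 4.21, 6.42 and 5.67 in eggs (log2 difference -4.48, SE 0.18, adjusted p = 1.25e-09), and itga5, a fibronectin receptor subunit, rose from 1.99, 1.07, 1.03 and 1.08 to 23.1, 21.2, 30.2, 22 and 24.5 (log2 difference 3.47, SE 0.16, adjusted p = 3.2e-09). The 3 tested keratin genes passed the filter only through FG follicles, so their lower level in eggs was fixed by it; krt8 was at 6.84 FPKM in FG follicles and 0.336 in eggs. Of the 2 tested aquaporin genes, aqp7 fell from 6.27 to 0.982 FPKM. The other was called higher in eggs (log2 difference 0.645), a call not kept under all 5 scalings.

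**Figure D4:**
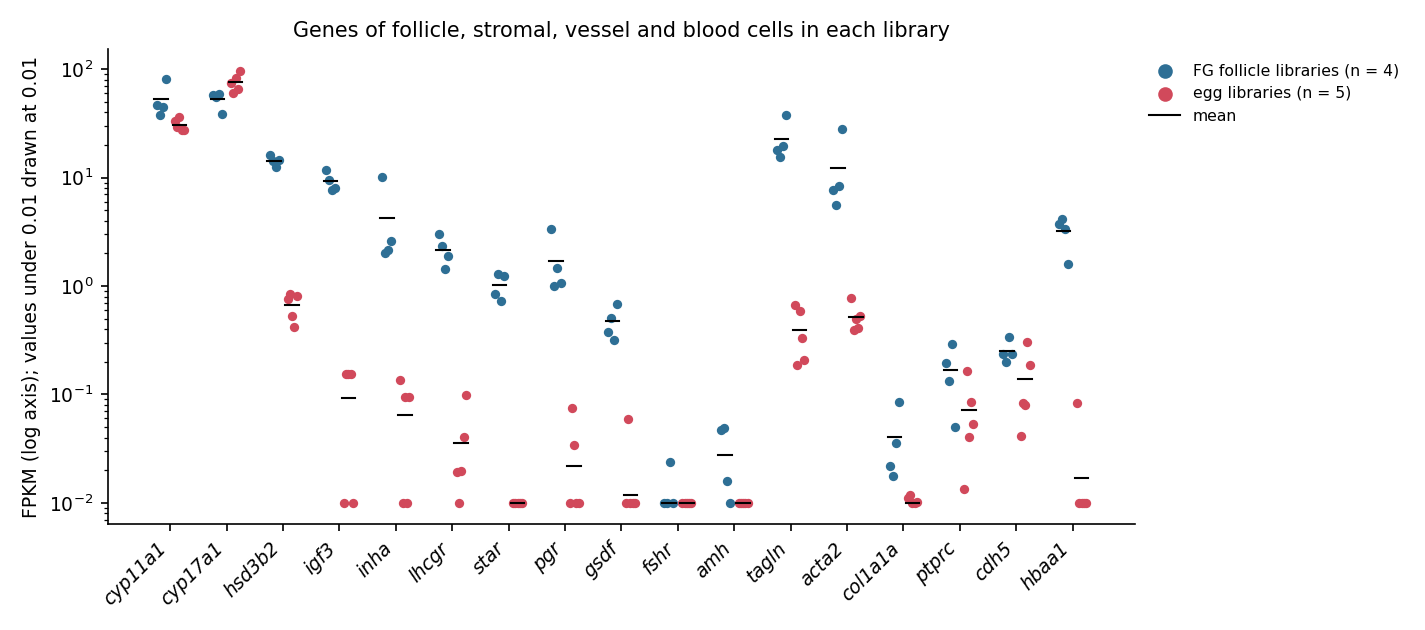
FPKM (log axis, values under 0.01 drawn at 0.01) of genes of steroid-making follicle cells, stroma, leukocytes, endothelium and erythrocytes in each FG follicle and egg library, with the mean as a line. cyp11a1 and cyp17a1 stay between 27.2 and 96.6 FPKM in both stages, lhcgr, inha, igf3, star and hbaa1 are lower in every egg library than in any FG follicle library, and fshr, amh, ptprc, cdh5 and col1a1a are near 0 in both.

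**Figure D5:**
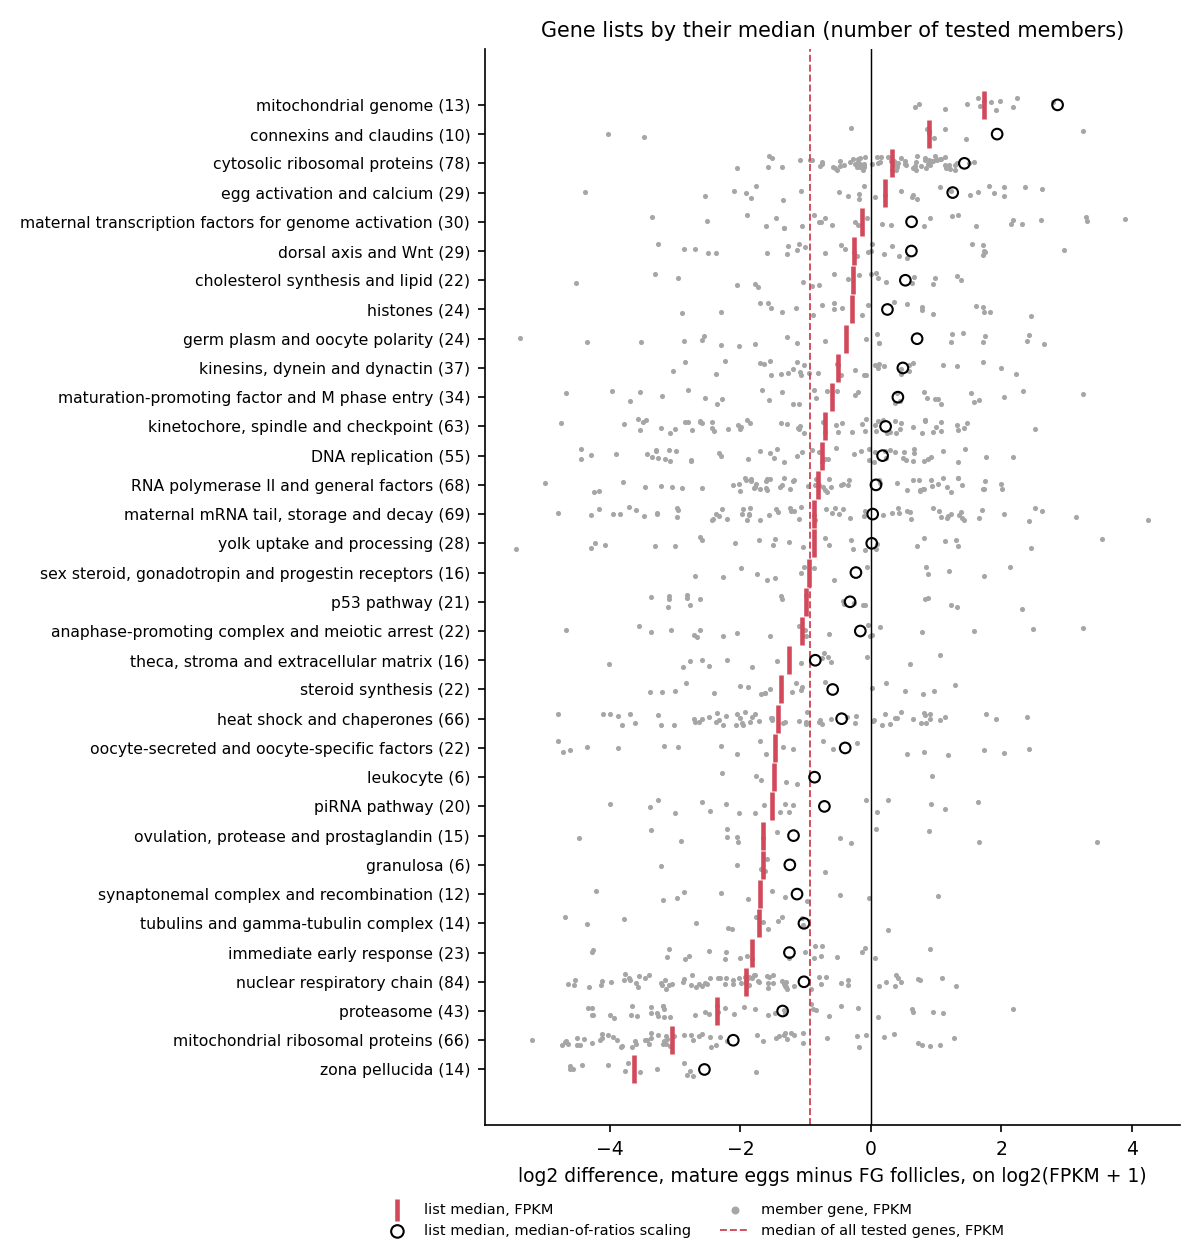
Log2 difference, eggs minus FG follicles, of the tested members of the 34 gene lists with 6 or more tested members (grey points), with the list median in FPKM (red bar) and with median-of-ratios scaling (open circle), sorted by the former; the dashed line is the median of all tested genes, -0.93. Zona pellucida and mitochondrial ribosomal protein genes have the lowest medians, -3.63 and -3.05, and the mitochondrial genome the highest, 1.74.

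The step from FG follicles to eggs was compared with the same step in sinhcaf mutants, which shares no library with it. In the mutant libraries, fitted on their own, 2377 of the same 9618 genes were called higher and 5495 lower in eggs. Of the 4632 genes that fell by at least 1 in wild type, 4498 (97.1%) were also called lower in mutants and 3 higher, and of the 1325 that rose by at least 1, 1293 (97.6%) were also called higher and 0 lower. The log2 differences of both genotypes had a correlation of 0.958 across genes, which are not independent replicates. A test of the difference between both steps, over all 18 libraries, called 180 genes (1.87%) with a more positive step in wild type and 418 (4.35%) with a more negative one. This balance depended on scaling: the counts were 201 and 139 in TPM, 93 and 311 in TPM without mitochondrial genes, 202 and 206 with median-of-ratios scaling and 375 and 422 with quantile normalization. With the replicate number as a block they were 85 and 236.

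Single genes differed strongly. nupr1b, a stress-response transcription regulator, fell in wild type from 22.5, 29.4, 14.8 and 31.3 FPKM in FG follicles to 0.53, 0.315, 0.315, 0.379 and 0.227 in eggs, and was listed at 0 in all mutant libraries (difference of steps -4.19, SE 0.21, adjusted p = 8.24e-10). foxa fell in wild type from 14.4, 9.19, 8.39 and 10.9 to 0.327, 0.31, 0.416, 0.685 and 0.793 FPKM, while its mutant means were 0.00699 in FG follicles and 0.0064 in eggs (difference of steps -2.95, SE 0.18, adjusted p = 4.71e-09). mrpl1 and ptx3b were low in mutant FG follicles, with means of 0.439 and 0.115 FPKM there (difference of steps -3.82, SE 0.26, adjusted p = 1.28e-08 for mrpl1 and difference of steps -2.63, SE 0.19, adjusted p = 2.99e-08 for ptx3b). spns1 rose in wild type from 8.61, 7.48, 5.04 and 7.81 to 85.7, 77.9, 79, 93.3 and 86.8 FPKM and had mutant means of 0.0178 and 0.896 (difference of steps 2.5, SE 0.19, adjusted p = 7.96e-08). In wild type, nupr1b and foxa were under 1 FPKM in every egg library, so the filter fixed the direction of their falls. The mutant means given for nupr1b, foxa, mrpl1, ptx3b and spns1 are all under 1 FPKM. On log2(FPKM + 1) a step between such values is bound to be small. For spns1 a weaker rise in mutants by fold change is therefore not shown. arfgap1, a regulator of Golgi traffic, fell in wild type from 7.63, 10.6, 10.2 and 8.01 to 2.52, 3.06, 2.4, 2.25 and 3.37 FPKM, a call lost with quantile normalization, and rose in mutants from 4.94 to 15.8 (difference of steps -2.96, SE 0.24, adjusted p = 1.97e-07). The metallothionein gene mt2 fell in both, from 13.1 to 1.54 FPKM in wild type and from 183 to 5.62 in mutants (difference of steps 2.43, SE 0.39, adjusted p = 0.000764), and fancm rose from 3.62 to 22.9 in wild type, with mutant means of 3.12 and 3.69 (difference of steps 2.07, SE 0.33, adjusted p = 0.000751). itm2bb and cyp2v1 fell in wild type, from 11.1 to 1.73 and from 5.01 to 2.08 FPKM, and further in mutants, from 33.7 to 0.658 and from 15.6 to 1.65; the fall of cyp2v1 in wild type turned to 0.31 after quantile normalization. The rise of mitochondrial transcripts was smaller in wild type than in mutants by this test for 12 of the 13 genes, as for mt-nd4l, with 6235 and 19950.4 FPKM in wild type and 3981 and 31339.6 in mutants (difference of steps -1.37, SE 0.34, adjusted p = 0.0218).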

How the data were processed

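The authors sequenced poly(A)-selected mRNA (TruSeq Stranded mRNA kit, RNA integrity number of at least 7, per the labels' protocols) and deposited FPKM values for 25432 genes in 18 library columns. Their processing notes name Trimmomatic, HISAT2, Cufflinks, HTSeq and the build GRCz11 with no versions, order or roles, so the tool behind the FPKM values, the treatment of shared reads and the use of strand are not given in the sources used here. All library columns were mapped by title, and a replicate is a pool from 1 fish, per the design text.

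From the deposited FPKM, genes at 1 or more in at least 4 of the 9 wild-type libraries were kept (9618), taken as log2(FPKM + 1) and analysed in R 4.3.3 by a limma 3.58.1 model of both stage means (moderated variances, trended prior), which left 7 residual degrees of freedom; p-values had Benjamini-Hochberg adjustment. Differences understate low genes on this scale. The genotype comparison used 4 group means of all 18 libraries (14 residual degrees of freedom). Library measures had two-sided exact permutation tests (scipy 1.17.1). The fit was tested on simulated data.

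The comparison, the 39 gene lists (1761 names matched, 23 by synonym, 61 not matched) and the tests were chosen with earlier results of these data known; some lists were trimmed later, and no list was tested as a set. Genes were named by rule. The rule took the 15 largest changes each way among called genes with a proper symbol and stages that do not overlap. It also took up to 4 called members of a list, from its largest rises and largest falls. Fixed contrasts within pathways and the 5 largest genotype differences each way were named too. The set was narrowed to 136 tested genes after values were seen. Same-numbered libraries did not pair: their deviations correlated at 0.204, 0.286, -0.05 and -0.09. Alternatives were other pseudocounts, filters, scalings and model settings, single libraries left out and, added after the data were seen, subsets of egg libraries and calls under all 5 scalings. No sequence or coordinates were used.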

Additional observations from a re-analysis of the deposited data

Results flagged for a closer look

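In 282 groups of 4 or 5 libraries tested for a library far from the others (Dixon's gap criterion at 95%), 22 had one. Chance alone gives about 1 in 20. Genes were tested on log2 values and library measures on untransformed values. FG follicle library 3 had the most, and was the lowest of its stage for zp3a.1 (234 FPKM), aqp7 (3.71), sox19b (17.0), ccna2 (29.5), ddit4 (5.41) and eomesa (6.41). FG follicle library 1 was the highest for fosab (46.3), inha (10.1) and itga5 (1.99) and the lowest for eif2s2 (116) and anapc4 (14.3). FG follicle library 2 was the lowest for st3gal1 (90.0), and library 4 was the lowest for cyp17a1 (38.3) and the highest for mt-nd1 (1203). Among eggs, library 1 was the highest for mrpl17 (7.44) and hbaa1 (0.0840) and the lowest for ptx3b (0.192), library 3 was the highest for cldn5b (6.79), med10 (189) and psme4b (40.4), library 2 was the lowest for eomesa (160) and library 5 for mt-co2 (12328).

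For 19 named genes the step from FG follicles to eggs differed between wild type and sinhcaf mutants (limma, difference of steps on the log2 scale, adjusted over all genes). It was more positive in wild type for spns1 (2.5), mt2 (2.43), fancm (2.07), itm2bb (1.93), cyp2v1 (1.71) and nr4a1 (0.86). It was more negative in wild type for nupr1b (-4.19), mrpl1 (-3.82), arfgap1 (-2.96), foxa (-2.95), ptx3b (-2.63), psma4 (-0.97), psme3 (-0.81) and orc6 (-0.73), and for mt-nd4l (-1.37), mt-atp6 (-1.34), mt-cyb (-1.30), mt-nd1 (-1.07) and mt-co1 (-0.96). For spns1, nupr1b, mrpl1, foxa and ptx3b the mutant means given above were under 1 FPKM. The differences of these genes on this scale do not compare fold changes.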

How the results depend on the processing

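With median-of-ratios scaling, 3798 genes were higher in eggs, 2800 higher and 2886 lower by at least 1, and the steps of both genotypes differed downwards in 206 genes; with quantile normalization the counts were 3984 higher and 3841 lower, 2696 and 2415 by at least 1, and 375 with a more positive step in wild type. In TPM 139 genes had a more negative step, and without mitochondrial genes 93 a more positive one. Calls under all 5 scalings left 3530 lower genes. Testing against a difference of 1 (limma treat) left 860 higher and 3723 lower. Without a filter 9414 genes were lower, and with a filter at 5 FPKM 3691 were, 3084 of them by at least 1; a pseudocount of 5 left 2740 lower by at least 1. Limits of 1 and 0.5 FPKM gave 795 genes in FG follicles only and 30 in eggs only. Without mitochondrial genes, summed FPKM was -25006 in eggs relative to FG follicles, where with them it was 63466 higher, and the ribosomal share was 2.01 points higher.

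Of 136 named genes, 113 kept direction and call under all alternatives, 25 at most per gene. Direction turned with median-of-ratios scaling for cyp11a1 (0.40), gdf9 (0.82), sox19b (1.02) and cdc20 (1.11), and with quantile normalization for cyp2v1 (0.31), gdf9 (0.84), mt-cyb (-0.53), mt-co2 (-0.67) and mt-co1 (-0.24). Directions are counted only where a value passed the test before or after.

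Leaving out 1 library at a time gave 2193 to 2280 higher and 5692 to 5879 lower genes, 1316 to 1355 and 4570 to 4738 by at least 1, and 70 to 90 genes in FG follicles only. Genotype differences ranged from 128 to 215 and from 301 to 554. With the replicate number as a block, although the numbers did not pair, 2224 genes were higher, 5823 lower, and 85 and 236 differed between genotypes. The cause of these changes was not tested. Depth is unknown, so values under about 1 FPKM carry a counting error that cannot be stated.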

Other observations

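The 20 nuclear genes with the highest mean FPKM in each stage were listed after the values were seen. Of the egg set 19 were called higher in eggs (23.8% of all tested genes were) and of the FG follicle set 16 lower (60.4% of all); genes picked for a high level in a stage are favoured to be higher there, so nothing is read from these counts. Of those 16, kpna7 was not called with median-of-ratios scaling (-0.22) and mid1ip1l was higher in eggs (0.41). The egg set was led by h2af1al, an H2A variant, at 2018 ± 404 FPKM in eggs (SD, n = 5) and 608 ± 152 in FG follicles (SD, n = 4), and by the maternal linker histone h1m, at 1913 ± 191 and 1301 ± 115. It also held sumo3b (1443 ± 78.1 in eggs, 291 ± 62.5 in FG follicles), cth1, a CCCH zinc finger gene (1417 ± 253 and 140.1 ± 51.5), npc2, a lysosomal sterol carrier (1307 ± 128 and 314 ± 40.6), and rcc1, the Ran exchange factor (1037 ± 58.6 and 240.0 ± 10.3). Of the genes highest in FG follicles, buc and lamp2, a lysosomal membrane protein (712.5 ± 67.3 FPKM in FG follicles, 161 ± 46.4 in eggs), fell, and the cathepsin gene ctsba was not called (1317 ± 53.3 and 1119 ± 265). The linker histone h1m and ctsba were the genes in both sets.

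Genes often used as references for quantitative PCR differed between the stages. actb1 was at 85.9 ± 2.60 FPKM in FG follicles and 3.39 ± 0.698 in eggs (log2 difference -4.32, limma adjusted p = 5.67e-10), actb2 at 559.5 ± 38.1 and 63.0 ± 16.5 (-3.16, adjusted p = 4.73e-09), and gapdh at 356 ± 28.5 and 25.4 ± 9.75 (-3.82, adjusted p = 8.22e-09). eef1a1l1 was at 389.8 ± 29.7 and 593 ± 78.6 (0.60, adjusted p = 0.000315) and tbp at 17.8 ± 4.35 and 45.8 ± 5.8 (1.34, adjusted p = 1.78e-05). ppiaa (-0.12, adjusted p = 0.44) and rpl13 (-0.17, adjusted p = 0.305) were not called in FPKM, and with median-of-ratios scaling they were at 1.0 and 0.95.

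The 30 genes at 1 FPKM or more in all egg libraries and under 0.5 in all FG follicle libraries were higher in eggs by these limits. Nothing is read from their direction. They were led by atf2, a transcription factor of the CREB family, at 6.02 ± 0.59 FPKM in eggs and 0.199 ± 0.0939 in FG follicles.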
